A study of Mus musculus with 13 samples.

Results

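A set of 10 carriers of the blood-brain barrier was followed at the level of messenger RNA in mouse brain: the efflux pumps Abcb1a, Abcg2 and Abcc4, the energy carriers Slc2a1 and Slc16a1, the amino acid and taurine carriers Slc38a5, Slc7a5, Slc7a1 and Slc6a6, and the organic anion carrier Slc22a8. They were picked by gene symbol as carriers known from brain capillaries; the rule uses no measured value, although the choice was made with earlier results of these data known. Each of the 10 matched 1 row among the 55416 genes of the deposited table, and all 10 were among the 22507 genes that passed the filter on low counts.

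Endothelial cells of brain capillaries are sealed to each other by tight junctions, so glucose, lactate and amino acids reach the brain through carrier proteins in the endothelial membranes. Efflux pumps of the ATP-binding cassette family return many drugs and metabolites to the blood. Several of these carriers are also made by other brain cells, among them astrocytes, neurons and the epithelium of the choroid plexus.

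The mice carried a loxP-flanked Pdcd10 gene (Pdcd10 fl/fl), also named Ccm3, loss of which in endothelium causes cerebral cavernous malformations, clusters of enlarged and leaky brain vessels. Knockouts (KO) additionally carried Slco1c1-iCreERT2, a Cre recombinase active in brain endothelium after tamoxifen, and received 50 µg of 4-hydroxytamoxifen on postnatal day 1. Controls (flox) were littermates with Pdcd10 fl/fl and no Cre; the design text does not say whether they were injected, and also mentions Cre carriers without injection as controls. Mice of each genotype were kept at 21% oxygen (normoxia) or at 12% oxygen for 7 days (hypoxia), with 3 libraries in each group except KO hypoxia, which had 4. No source used here states the age at harvest. Cre and loss of Pdcd10 differ together between the genotypes and cannot be told apart, and tamoxifen may differ with them. The comparisons ask how the genotype changed expression at each oxygen level, and how hypoxia changed it in each genotype.

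Libraries held between 42090437 and 71216636 counts, and the counts of a member in 1 library ran from 158 for Slc38a5 to 16938 for Slc2a1. Levels are given in CPM, the counts of a gene relative to the library's total, scaled by the TMM method. Pdcd10 itself lay between 16.2 and 18.1 CPM in normoxia with overlapping genotypes, and in hypoxia at 17.2 to 17.6 CPM in flox and 14.7 to 17.0 CPM in KO. Its difference was called in neither (-0.02 ± 0.07 and -0.09 ± 0.07, edgeR, adjusted p = 0.962 and 0.47), so it gives no clear check of the labels in whole tissue. Markers of neurons, astrocytes and oligodendrocytes were detected in every library. All animals are labelled male, yet Xist stood between 564 and 793 CPM in 4 libraries (flox normoxia 3, KO normoxia 3, KO hypoxia 3 and 4). KO hypoxia replicate 1 stood apart, with 17400 CPM over the erythroid markers against 3410 to 4170 in the other 3 libraries of its group.

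Most of these carriers had higher messenger RNA in the KO libraries than in the flox libraries. In normoxia 7 of 10 were called higher in KO than in flox (edgeR, adjusted p under 0.05) where 1.96% of all genes were, and none was called lower, against 0.369% of all genes. In hypoxia 8 of 10 were called higher, against 6.78% of all genes, and none lower, against 2.28%. The additional carrier was the efflux pump Abcc4, while Slc7a1 and Slc22a8 were called at neither oxygen level. By CPM, 9 carriers in normoxia and 8 in hypoxia were higher in every KO library than in every flox library, as were 10.5% and 11.5% of all genes, and none was lower without overlap, as were 8.7% and 9.37% of all genes. The median log2 fold change of the 10 carriers was 0.43 in normoxia and 0.58 in hypoxia, where the medians of all genes were 0 and -0.01. The normoxia count was less stable to the choice of libraries than the hypoxia count. With 1 library left out, it fell to 3 (flox normoxia replicate 1) or 4 (any KO normoxia replicate, or flox hypoxia replicate 2) and reached 8 when KO hypoxia replicate 1 was the one removed. Other removals also lost calls: without flox hypoxia replicate 1, Slc16a1 and Slc6a6 were not called in normoxia (edgeR, adjusted p = 0.0571 and 0.0553). In hypoxia 7 or 8 carriers were called whichever library was left out. In normoxia Slc16a1, Slc7a5 and Slc6a6 were called in 12, 14 and 12 of 24 alternative settings. Of these settings, 13 left out 1 library, and there the 3 carriers were called in 4, 6 and 5. In the other 11 they were called in 8, 8 and 7. Abcb1a, Abcg2 and Slc38a5 were called in all 24.

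**Figure D1:**
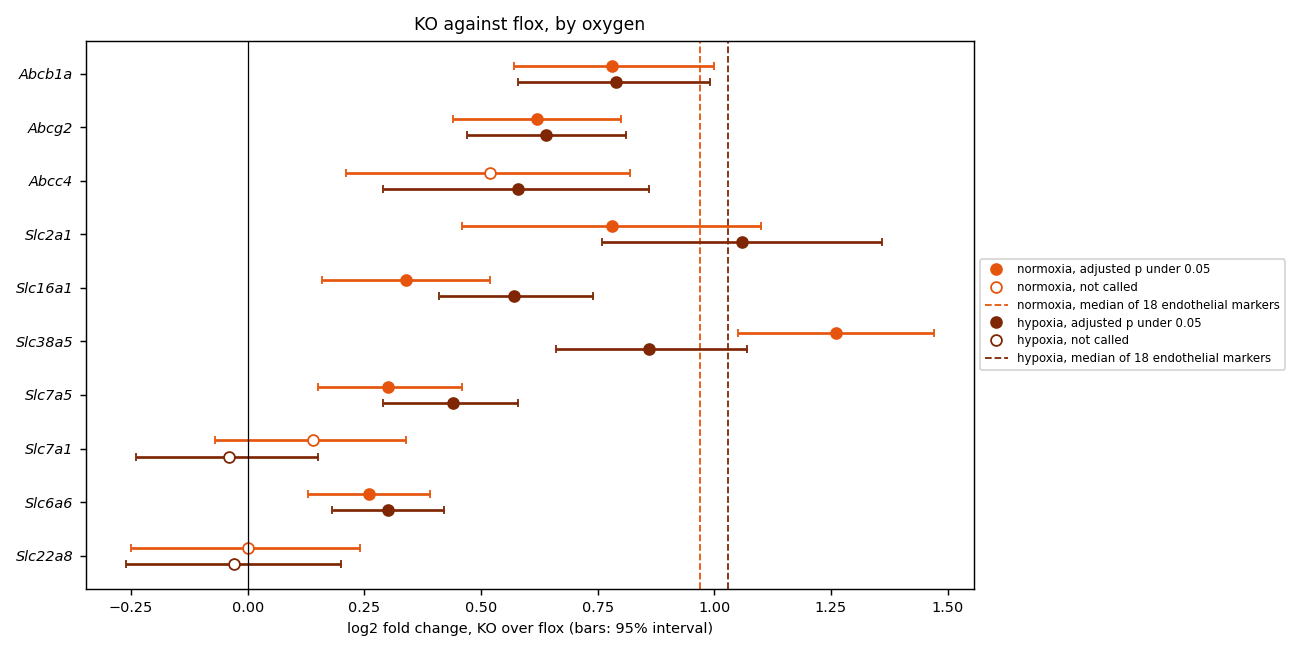
Log2 fold change of KO over flox for each carrier (x axis) in normoxia and hypoxia, with 95% intervals. Filled points passed the threshold, and dashed lines mark the medians of 18 endothelial markers, 0.97 in normoxia and 1.03 in hypoxia, to the right of all carriers except Slc38a5 in normoxia and Slc2a1 in hypoxia.

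The endothelium itself was more strongly represented in the KO libraries. Of 18 general endothelial markers, among them the junction genes Pecam1, Cdh5 and Cldn5, 17 were called higher in normoxia and all 18 in hypoxia. For this and the following lists, 1.96% of all genes were called higher in normoxia and 6.78% in hypoxia. The shares called lower were 0.369% and 2.28%. Their summed level was 316 to 345 CPM in flox and 579 to 670 CPM in KO in normoxia, and 409 to 459 CPM and 767 to 1170 CPM in hypoxia. Pericyte markers were also higher, 7 of 10 in normoxia and 8 of 10 in hypoxia, with sums of 219 to 255 CPM in flox and 377 to 404 CPM in KO in normoxia, and 289 to 293 CPM and 437 to 574 CPM in hypoxia. Of 7 erythroid markers tested, 5 were called higher in normoxia (139 to 262 CPM in flox, 974 to 1700 CPM in KO) and all 7 in hypoxia (449 to 671 CPM and 3410 to 17400 CPM). Of 10 meningeal fibroblast markers, 1 was called higher in normoxia (87.5 to 101 CPM in flox, 104 to 139 CPM in KO) and 7 in hypoxia (76.1 to 82.0 CPM and 105 to 184 CPM). Other lists did not rise in this way. Of 8 oligodendrocyte markers, 1 was called lower in normoxia (4750 to 6360 CPM in flox, 3980 to 4930 CPM in KO) and 0 in hypoxia, and 0 were called higher. Of 10 astrocyte markers, 1 was called higher and 1 lower in normoxia, and 3 higher and 1 lower in hypoxia. Of 8 neuron markers, 0 were called in normoxia and 1 was called lower in hypoxia. No endothelial or pericyte marker was at 0 in any library. In whole tissue, more cells of a type and more RNA per cell cannot be told apart, and the part of these markers in the carriers' differences was not tested beyond the relative levels given further on.

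Abcb1a encodes P-glycoprotein, the main drug efflux pump of the capillary wall. Its level was 22.0, 20.6 and 19.4 CPM in the flox normoxia libraries, 32.8, 39.2 and 34.5 CPM in KO normoxia, 26.9, 29.3 and 27.0 CPM in flox hypoxia, and 58.0, 47.0, 44.6 and 41.9 CPM in KO hypoxia. The groups formed a ladder without overlap, from flox normoxia through flox hypoxia and KO normoxia to KO hypoxia. KO exceeded flox by a log2 fold change of 0.78 ± 0.10 (SE; edgeR, adjusted p = 0.000579) in normoxia and 0.79 ± 0.10 (adjusted p = 9.7e-05) in hypoxia. Its near copy Abcb1b shares sequence with it: 15.5% of the 50-base windows of the longest coding transcript of Abcb1a also occur in Abcb1b, so the split of counts between them is uncertain. Abcb1b stood at 4.80 ± 0.538 CPM (SD, n = 3) in flox normoxia and 7.59 ± 1.48 CPM (SD, n = 4) in KO hypoxia. It was called higher in KO in hypoxia (0.75 ± 0.13, edgeR, adjusted p = 0.00171), while in normoxia its difference was 0.43 ± 0.14 (adjusted p = 0.148).

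Abcg2, the breast cancer resistance protein, stood at 14.4, 15.4 and 15.7 CPM in flox normoxia and at 25.2, 22.2 and 22.5 CPM in KO normoxia. In hypoxia it was 15.1, 14.0 and 15.5 CPM in flox and 26.7, 22.3, 22.5 and 21.1 CPM in KO. Both KO groups lay above both flox groups, and oxygen made no visible step in either genotype. The genotype difference was 0.62 ± 0.08 in normoxia (edgeR, adjusted p = 0.000813) and 0.64 ± 0.08 in hypoxia (adjusted p = 0.000116). Abcc4, which exports organic anions and cyclic nucleotides, had 9.46 to 12.8 CPM in flox normoxia, 14.3 to 16.3 CPM in KO normoxia, 10.8 to 11.7 CPM in flox hypoxia and 13.6 to 21.7 CPM in KO hypoxia. Its genotypes did not overlap at either oxygen level. It was called in hypoxia (0.58 ± 0.13, edgeR, adjusted p = 0.0129) but not in normoxia (0.52 ± 0.14, adjusted p = 0.0787), and the hypoxia call was lost without flox hypoxia replicate 1 (adjusted p = 0.0646). The interaction of genotype and oxygen for Abcc4 was 0.06 ± 0.19 (edgeR, adjusted p = 0.969).

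Slc2a1 encodes GLUT1, the glucose carrier of the barrier. It measured 78.9, 77.7 and 108 CPM in flox normoxia, 172, 145 and 138 CPM in KO normoxia, 107, 96.1 and 111 CPM in flox hypoxia, and 288, 196, 190 and 199 CPM in KO hypoxia. KO lay above flox at both oxygen levels, and the highest value came from the KO hypoxia library that stood apart. The difference was 0.78 ± 0.15 in normoxia (edgeR, adjusted p = 0.01) and 1.06 ± 0.14 in hypoxia (adjusted p = 0.000201), which made it the largest rise of the 10 carriers in hypoxia. Without KO hypoxia replicate 1 the KO mean went from 218 ± 46.7 CPM (SD, n = 4) to 195 ± 4.50 CPM (SD, n = 3), and the hypoxia difference was 0.90 ± 0.11 (edgeR, adjusted p = 6.42e-05). Slc2a3, the neuronal glucose carrier, was not called, with 192 ± 20.8 CPM in flox normoxia and 187 ± 10.3 CPM in KO normoxia (SD, n = 3 each).

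Slc16a1 encodes MCT1, which carries lactate and ketone bodies. Its level was 36.7, 41.6 and 48.7 CPM in flox normoxia, 53.7, 55.0 and 52.0 CPM in KO normoxia, 50.4, 45.6 and 47.5 CPM in flox hypoxia, and 70.1, 65.5, 78.3 and 71.2 CPM in KO hypoxia. All KO libraries lay above the flox libraries of the same oxygen level, with KO hypoxia highest. The difference was 0.34 ± 0.08 in normoxia (edgeR, adjusted p = 0.0447) and 0.57 ± 0.08 in hypoxia (adjusted p = 0.000246). Bsg, the glycoprotein basigin that brings MCT1 to the membrane, rose from 322 ± 9.83 to 447 ± 24.7 CPM in normoxia (0.47 ± 0.07, edgeR, adjusted p = 0.00171). In hypoxia it rose from 384 ± 21.3 to 592 ± 59.3 CPM (0.63 ± 0.07, adjusted p = 3.35e-05). Of the other lactate carriers, Slc16a3 was called higher in hypoxia (0.82 ± 0.19, edgeR, adjusted p = 0.0127), and Slc16a7 was called in neither comparison.

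**Figure D2:**
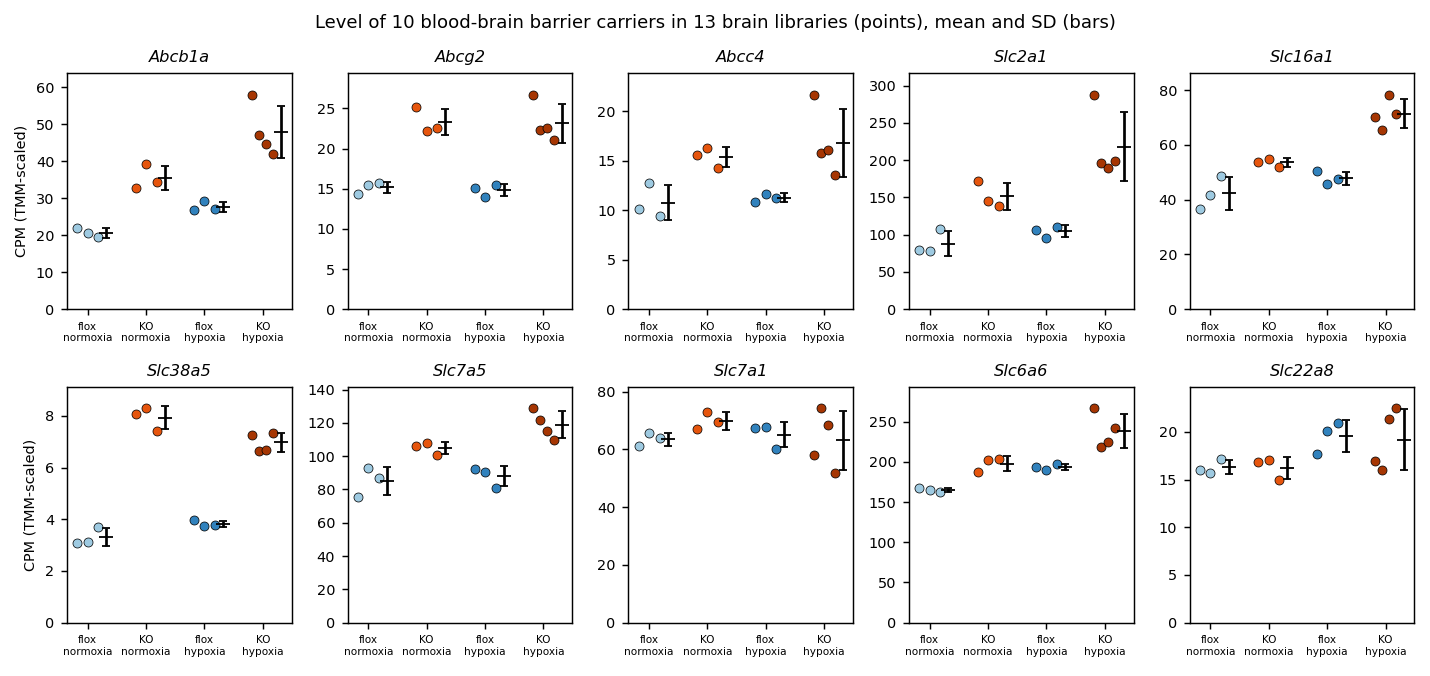
Level of each carrier in CPM (y axis, from 0) in the 13 libraries, by group, with mean and SD as bars. KO points lie above flox points of the same oxygen level for 8 carriers, while Slc7a1 in hypoxia and Slc22a8 at both oxygen levels overlap.

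Slc38a5, a carrier of glutamine and other small neutral amino acids, had the lowest counts of the 10 and the largest rise in normoxia. It measured 3.09, 3.13 and 3.70 CPM in flox normoxia, 8.07, 8.31 and 7.43 CPM in KO normoxia, 3.97, 3.75 and 3.77 CPM in flox hypoxia, and 7.28, 6.65, 6.68 and 7.33 CPM in KO hypoxia. No groups overlapped, and KO normoxia was the highest, unlike the other called carriers except Abcg2, whose KO groups overlapped. KO exceeded flox by 1.26 ± 0.10 in normoxia (edgeR, adjusted p = 2.05e-05), a 2.40-fold difference, and by 0.86 ± 0.10 in hypoxia (adjusted p = 4.68e-05). The genotype effect in hypoxia minus that in normoxia was -0.40 ± 0.14 (edgeR, unadjusted p = 0.0106, adjusted p = 0.625), so a difference between the oxygen levels did not pass the test. The gene lies on chromosome X, and with only the libraries without Xist the differences were 1.39 ± 0.13 and 0.86 ± 0.11. Its relatives Slc38a3 and Slc38a2 stood at 69.0 ± 13.7 and 135 ± 10.9 CPM in flox normoxia (SD, n = 3 each). Slc38a3 was called higher in KO in hypoxia (0.43 ± 0.11, edgeR, adjusted p = 0.0244).

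Slc7a5 encodes LAT1, the carrier of large neutral amino acids. It had 75.7, 92.7 and 87.0 CPM in flox normoxia, 106, 108 and 101 CPM in KO normoxia, 92.3, 90.4 and 81.1 CPM in flox hypoxia, and 129, 122, 115 and 110 CPM in KO hypoxia. The genotypes did not overlap, with differences of 0.30 ± 0.07 in normoxia (edgeR, adjusted p = 0.0364) and 0.44 ± 0.07 in hypoxia (adjusted p = 0.000653). Slc3a2, the heavy chain that LAT1 needs at the membrane, was called at neither oxygen level (0.14 ± 0.06 and 0.16 ± 0.06, edgeR, adjusted p = 0.299 and 0.0863). Slc6a6, the taurine carrier, had 163 to 167 CPM in flox normoxia, 187 to 204 CPM in KO normoxia, 190 to 197 CPM in flox hypoxia and 219 to 267 CPM in KO hypoxia. KO was higher by 0.26 ± 0.06 in normoxia (edgeR, adjusted p = 0.0364) and by 0.30 ± 0.06 in hypoxia (adjusted p = 0.00333), the smallest of the called rises at both oxygen levels. With only the libraries without Xist, Slc7a5 and Slc6a6 were not called in normoxia (edgeR, adjusted p = 0.0844 and 0.234).

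Slc7a1, the carrier of arginine and lysine, measured 61.1, 65.6 and 63.8 CPM in flox normoxia, 66.9, 72.9 and 69.6 CPM in KO normoxia, 67.3, 67.7 and 60.2 CPM in flox hypoxia, and 57.9, 74.3, 68.4 and 51.7 CPM in KO hypoxia. The KO normoxia libraries lay just above flox, and the KO hypoxia libraries scattered on both sides. The difference was 0.14 (95% interval -0.07 to 0.34, edgeR, adjusted p = 0.598) in normoxia and -0.04 (-0.24 to 0.15, adjusted p = 0.832) in hypoxia. Its relative Slc7a2 fell by 0.35 on the log2 scale in KO in normoxia (edgeR, adjusted p = 0.0124), from 38.7 ± 3.52 to 30.4 ± 0.933 CPM (SD, n = 3 each), and was not called in hypoxia (-0.20 ± 0.06, adjusted p = 0.0647).

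Slc22a8, or OAT3, carries organic anions out of the brain. It stood at 16.0, 15.7 and 17.1 CPM in flox normoxia, 16.8, 17.0 and 14.9 CPM in KO normoxia, 17.7, 20.1 and 20.9 CPM in flox hypoxia, and 16.9, 16.0, 21.3 and 22.5 CPM in KO hypoxia. The genotypes overlapped at both oxygen levels. The 95% interval of the difference ran from -0.25 to 0.24 in normoxia and from -0.26 to 0.20 in hypoxia (edgeR, adjusted p = 0.993 and 0.911). With only the libraries without Xist the hypoxia difference was -0.25 ± 0.08 (edgeR, adjusted p = 0.128). In that setting the KO hypoxia libraries, at 16.9 and 16.0 CPM, lay below all flox hypoxia libraries. The interaction of genotype and oxygen was then -0.34 ± 0.13 (edgeR, adjusted p = 0.576). The choroid plexus also makes this carrier, and its 10 markers summed to 12.8 to 357 CPM in KO normoxia and to 321 to 538 CPM in the other groups. In KO, hypoxia minus normoxia was 0.24 ± 0.11 for Slc22a8 (edgeR, adjusted p = 0.321), and -0.03 with only the libraries without Xist. None of the choroid plexus markers was called in either genotype comparison, and their part in the level of Slc22a8 was not tested.

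Stretches before the transcription start are shown for 3 carriers that rose in KO at both oxygen levels and for Slc7a1, which was not called. Each is 200 bases, from 250 to 51 bases before a start annotated by RefSeq on GRCm38.p6, 5′ to 3′ on the gene's strand, and holds no annotated exon. The authors' build was GRCm39, and positions were not converted. Capitals mark ACGTG, a form of the core of the hypoxia response element, and CACCC, the core bound by Klf factors, on either strand. Other forms of the hypoxia response element core were not marked or counted.
Abcb1a, chr5:8566841-8567040, plus strand: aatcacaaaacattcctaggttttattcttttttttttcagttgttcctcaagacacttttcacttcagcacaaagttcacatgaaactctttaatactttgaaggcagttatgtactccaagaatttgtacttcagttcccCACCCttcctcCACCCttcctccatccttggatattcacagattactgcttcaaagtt
Slc2a1, chr4:119108495-119108694, plus strand: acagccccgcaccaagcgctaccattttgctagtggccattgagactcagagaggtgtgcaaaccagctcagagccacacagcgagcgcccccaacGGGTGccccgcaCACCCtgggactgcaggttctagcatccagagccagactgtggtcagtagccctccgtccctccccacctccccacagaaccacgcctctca
Slc16a1, chr3:104638414-104638613, plus strand: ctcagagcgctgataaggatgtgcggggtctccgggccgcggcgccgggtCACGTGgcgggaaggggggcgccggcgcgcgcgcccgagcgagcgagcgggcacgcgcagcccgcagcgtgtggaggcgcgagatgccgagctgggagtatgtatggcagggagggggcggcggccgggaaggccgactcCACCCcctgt
Slc7a1, chr5:148399955-148400154, minus strand: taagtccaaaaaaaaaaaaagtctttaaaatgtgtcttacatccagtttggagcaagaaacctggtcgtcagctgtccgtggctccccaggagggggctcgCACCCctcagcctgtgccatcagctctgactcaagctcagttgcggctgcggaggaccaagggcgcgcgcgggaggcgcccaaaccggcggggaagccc
Abcb1a and Slc2a1 each held 2 CACCC matches and Slc7a1 held 1. Slc16a1 held 1 CACCC match and the palindrome CACGTG, which reads ACGTG on each strand. Among windows not shown, 1 of Abcg2 (chr6:58596422-58596621) and that of Slc38a5, which overlaps annotated exons, held neither match. The other Abcg2 windows and the Abcc4 windows held 1 CACCC match each, and 1 Abcc4 window also held CACGTG. The window of Slc22a8, which was not called, held 2 CACCC matches. Of all 32851 windows of that length, 44.4% held CACCC and 12.9% held ACGTG, so these matches are common and describe the letters only. The table held 8 of the 10 carriers, without Slc7a5 and Slc6a6.

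Set against the endothelial markers of the same library, most carriers were lower in KO. The relative level is log2 CPM of the carrier minus the mean log2 CPM of the 18 markers, and it is a description with no test. In normoxia 7 carriers were lower in every KO library than in every flox library, where 86.6% of all genes were, and in hypoxia 7 were, where 81.8% of all genes were, so the counts are no higher than the background. These were Abcg2, Abcc4, Slc16a1, Slc7a5, Slc7a1, Slc6a6 and Slc22a8 at both oxygen levels. The KO minus flox difference was most negative for Slc22a8 in normoxia (-0.93) and Slc7a1 in hypoxia (-1.06). Their log2 fold changes in those comparisons were 0 and -0.04. By this measure a carrier with an unchanged level goes down wherever the marker mean goes up. Abcb1a and Slc2a1 overlapped between genotypes in both, at -0.15 and -0.14 in normoxia and -0.22 and 0.04 in hypoxia. Of the 18 markers, 13 had a larger log2 fold change than Abcb1a at each oxygen level, and 13 in normoxia and 8 in hypoxia had a larger one than Slc2a1.

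Slc38a5 was the exception. Its relative level was higher in every KO library in normoxia, by 0.33, where 0.471% of all genes were higher without overlap. Of the 18 endothelial markers, 2 had a larger log2 fold change than Slc38a5 in normoxia and 12 in hypoxia, where its relative level overlapped (-0.14). With Pecam1, Cdh5 and Tie1 alone as the reference the normoxia difference was 0.13 and the libraries overlapped. Without KO hypoxia replicate 1 the hypoxia differences of Slc38a5 and Slc2a1 were -0.05 and 0.01, and 7 carriers were again lower. The share of all genes was not computed without that library, and with all libraries it was 81.8%.

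**Figure D3:**
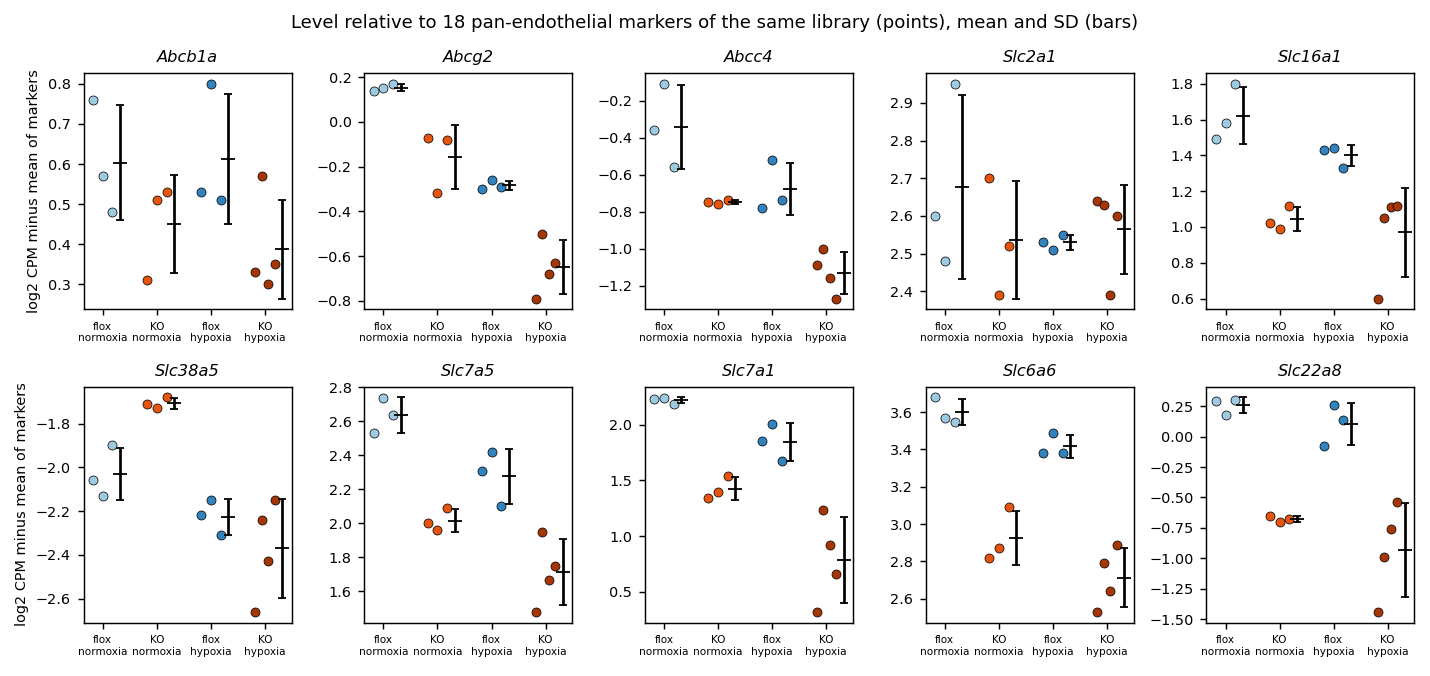
Relative level of each carrier (y axis, log2 CPM minus the mean log2 CPM of 18 endothelial markers) in the 13 libraries, with mean and SD as bars. Slc38a5 is higher in KO in normoxia, and Abcb1a and Slc2a1 overlap. Slc22a8, whose CPM overlapped between genotypes, has the most negative KO minus flox difference in normoxia, as the marker mean is higher in KO.

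Hypoxia gave fewer calls among the carriers than genotype did. In flox none of the 10 was called (edgeR), where 0.0222% of all genes were called higher, and 3 members had an unadjusted p under 0.05, as had 1497 of all genes. With DESeq2 1 member was called, Abcb1a. Abcb1a, Slc38a5, Slc6a6 and Slc22a8 were nevertheless higher without overlap, as were 6.56% of all genes, and none was lower, as were 5.98%. In KO 3 of 10 were called higher, against 0.622% of all genes: Abcb1a (0.43 ± 0.09, edgeR, adjusted p = 0.0461), Slc16a1 (0.41 ± 0.08, adjusted p = 0.0288) and Slc6a6 (0.27 ± 0.06, adjusted p = 0.0412). By CPM, 5 carriers were higher without overlap in KO (6.59% of all genes), these 3 with Slc2a1 and Slc7a5, and Slc38a5 was lower (6.04% of all genes). Slc2a1 missed the threshold (0.53 ± 0.14, adjusted p = 0.0836), as did Slc38a5, whose KO hypoxia libraries all lay below KO normoxia (-0.19 ± 0.09, adjusted p = 0.363). Without KO hypoxia replicate 1 only Slc16a1 was called (edgeR, adjusted p = 0.0438), and leaving out each library in turn gave counts from 0 to 4. The count was 0 without KO normoxia replicate 1, 2 or 3, and 1 without flox normoxia replicate 1 or 2, flox hypoxia replicate 1, 2 or 3, or KO hypoxia replicate 1 or 3. The interaction was called for no carrier and for no gene of the table (edgeR), with 1635 genes and 1 carrier at an unadjusted p under 0.05, and in Slc16a1 it was 0.24 ± 0.11 (adjusted p = 0.686). Each oxygen comparison shares libraries with both genotype comparisons.

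**Figure D4:**
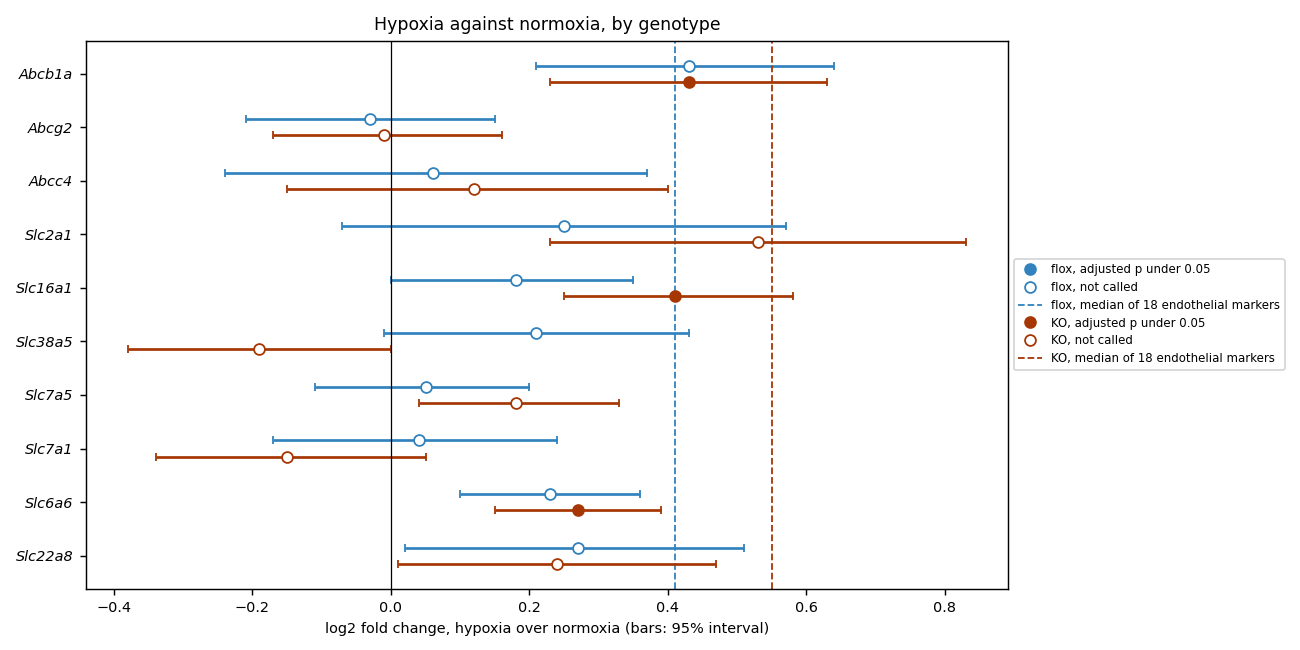
Log2 fold change of hypoxia over normoxia for each carrier (x axis) in flox and in KO, with 95% intervals. Filled points, Abcb1a, Slc16a1 and Slc6a6 in KO, passed the threshold, and the dashed lines mark the medians of 18 endothelial markers, 0.41 in flox and 0.55 in KO.

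Per transcript length, in the deposited RPKM values, Slc2a1 was the most abundant carrier in each group, followed by Slc7a5, Slc6a6 and Slc16a1. In flox normoxia these 4 stood at 25.0 ± 4.70, 22.8 ± 2.41, 19.4 ± 0.278 and 9.50 ± 1.33 RPKM (SD, n = 3), and Slc2a1 and Slc7a5 overlapped. In KO hypoxia Slc2a1 reached 63.0 ± 12.8 RPKM (SD, n = 4), clear of Slc7a5 at 32.5 ± 1.88 RPKM. Abcb1a moved from the 7th place in flox normoxia (3.75 ± 0.246 RPKM) to the 5th in KO hypoxia (8.83 ± 1.20 RPKM). Slc38a5 was the lowest in flox normoxia (1.47 ± 0.144 RPKM), where it overlapped Abcc4, and the 8th in both KO groups.

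A list of 36 further barrier carriers was read from the same fits. In normoxia 4 were called higher, where 1.96% of all genes were, and in hypoxia 9, where 6.78% were, with medians of 0.02 and 0.06. None was called lower, where 0.369% and 2.28% of all genes were. The riboflavin carrier Slc52a3 rose by 1.76 ± 0.18 in normoxia (edgeR, adjusted p = 0.000118) and by 1.33 ± 0.17 in hypoxia (adjusted p = 0.000139). The iron exporter Slc40a1, or ferroportin, rose by 0.97 ± 0.12 and 0.87 ± 0.11 (edgeR, adjusted p = 0.000277 and 0.000115). The thiamine carrier Slc19a3 (0.86 ± 0.18, adjusted p = 0.016) and the organic anion carrier Slco1a4 (0.58 ± 0.08, adjusted p = 0.000607) were the other carriers called in normoxia by edgeR. In hypoxia the largest rises after Slc52a3, ahead of Slc40a1, were the glutamine carrier Slc1a5 (1.02 ± 0.22, edgeR, adjusted p = 0.00772) and Abcc6 (1.01 ± 0.21, adjusted p = 0.00566). Both were at low levels, with hypoxia means of 1.59 CPM in flox and 3.21 CPM in KO for Slc1a5, and 2.16 and 4.34 CPM for Abcc6. The most abundant uncalled ones, the zinc carrier Slc39a10 and the ascorbate carrier Slc23a2, had differences of 0.18 and -0.03 in normoxia and -0.11 and -0.07 in hypoxia.

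Within groups the correlations between carriers ranged widely. After the group means of log2 CPM were subtracted, the 45 pairs of carriers had a median Pearson r of 0.27 over 13 libraries, from -0.60 for Slc7a1 with Slc6a6 to 0.84 for Abcg2 with Slc2a1. Among 12004 genes, those most like Slc2a1 were Fxyd5 (r = 0.97), Arhgef1 and Il1r1 (both 0.94), and those most like Abcb1a were Plcb3 (0.94), Dyrk1a (0.93) and Ttc28 (0.92). Those most like Slc38a5 were Ppib (0.93), Rsph10b and Pon2 (both 0.92). Slc6a6 was most like Plek (0.95), Rassf4 (0.94) and Itgam (0.92). Such partners are the top 3 of 12004 genes, and every carrier had a gene at r of 0.92 or more. What r unrelated genes would reach by such a choice was not tested. Plek and Itgam are genes of leukocytes and microglia. Of 8 microglial markers 7 were called higher in KO in hypoxia, where 6.78% of all genes were, with sums of 286 to 296 CPM in flox and 353 to 463 CPM in KO. In normoxia, where Slc6a6 was also called, 0 of the 8 were, against 1.96% of all genes. Their sums there were 281 to 299 CPM in flox and 331 to 344 CPM in KO. The part of these markers in the level of Slc6a6 was not tested. The correlations share library and depth, and KO hypoxia replicate 1 is among the points.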

How the data were processed

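Messenger RNA of mouse brain was measured in 13 libraries, and members and gene lists were chosen with earlier results of these data known. The authors deposited raw counts per gene and RPKM values for the same genes. HISAT2, edgeR and GRCm39 are named in the submitters' processing notes; their roles, the annotation and the strand setting are named in no source used here, although the library kit was stranded per the labels. The deposited RPKM values equal counts divided by the column total and 1 length per gene (relative range of that length 9.8e-15), without a composition factor. There were 0 columns of no sample.

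The test of the counts was edgeR's quasi-likelihood F test (version 4.0.16, R 4.3.3) after filterByExpr and TMM, with 4 group means fitted to all 13 libraries, 5 contrasts, and Benjamini-Hochberg adjustment over the 22507 genes of each. Standard errors came from the F statistic. Relative levels used log2 CPM with a prior count of 2. The labels give no animal identifiers, so p-values reflect the spread between libraries, which may be technical. No pair of libraries in a group agreed within sampling noise (chi-square per degree of freedom at least 4.44). All 10 members were named in each contrast, all partners and paralogs could be, and of the other carriers the 4 largest called rises and falls and the 2 most abundant uncalled genes. The scripts were tested on simulated data. Alternatives were other scaling and filters, DESeq2 1.42.0, limma 3.58.1 on log2(RPKM + 0.1) or log2(RPKM + 1), a term for Xist, a replicate block, fewer libraries and each library left out.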

Additional observations from a re-analysis of the deposited data

Results flagged for a closer look

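Slc2a1 in KO hypoxia replicate 1 stood at 288 CPM, far above the other 3 libraries of its group at 190 to 199 CPM. The gap to the nearest library was 0.908 of the group's range, above Dixon's 95% critical value for 4 libraries. Chance alone gives such a gap in about 1 in 20 groups. The 10 carriers were examined in the same 4 libraries, so their 10 gaps are not independent. The same library had the highest erythroid and endothelial marker levels of its group, and the part of these in the Slc2a1 value was not tested.

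For Slc38a5 the hypoxia libraries lay on opposite sides of the normoxia libraries in the 2 genotypes. Its log2 fold change was 0.21 in flox, with all hypoxia libraries above all normoxia libraries, and -0.19 in KO, with all hypoxia libraries below, and neither was called by edgeR (adjusted p = 0.785 and 0.363). The difference between those effects was -0.40 ± 0.14 and did not pass edgeR's test over all genes (adjusted p = 0.625).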

How the results depend on the processing

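Abcb1a, Abcg2 and Slc38a5 in normoxia, and 7 carriers in hypoxia, were called in 24 of 24 alternative settings, and Abcc4 in hypoxia in 23. In normoxia Slc2a1 was called in 21, Slc7a5 in 14, Slc16a1 and Slc6a6 in 12 each and Abcc4 in 8. Leaving out each library gave 3 to 8 carriers called higher in normoxia, 0 to 4 for hypoxia in KO, and 0 to 1 higher relative to endothelium in hypoxia. Limma on log2(RPKM + 1) and on log2(RPKM + 0.1) gave 4 in normoxia and 0 for hypoxia in KO, which was 0 with only the libraries without Xist and 1 with only the libraries compared. For hypoxia in flox 2 were called with no filter and 1 with DESeq2. With Pecam1, Cdh5 and Tie1 as reference 0 were higher in normoxia. Whether the replicate numbers pair the libraries was not settled. Correlations of same-numbered libraries ran from -0.02 to 0.09, and those of other pairs from -0.08 to 0.06. Between genotypes in normoxia same-numbered pairs were at 0.01 to 0.09, and for hypoxia in KO at 0.01 to 0.08, overlapping the other pairs. With a replicate block 7, 8, 0 and 2 carriers were called in the 4 pairwise comparisons, Abcc4 gained its call in normoxia (adjusted p = 0.0464) and Slc6a6 lost it (adjusted p = 0.0555). Values that changed sign were all uncalled. The largest was Slc22a8 for hypoxia in KO, 0.24, which became -0.03 with only the libraries without Xist. The same libraries gave 0.09 for Slc22a8 between genotypes in normoxia, 0.02 for Slc7a1 between genotypes in hypoxia, -0.03 for Abcc4 for hypoxia in flox and 0.06 for Abcg2 for hypoxia in KO. For Slc22a8 between genotypes others were 0 with a block and 0 with a term for Xist in normoxia, 0 without a composition factor in hypoxia, and 0 for its interaction without that factor. Slc7a1 in hypoxia was 0.03 with the block. For hypoxia in KO, Abcg2 was 0.02 without a composition factor, 0.03 with the block, 0 with the Xist term and 0.01 with limma at either pseudocount, and Abcc4 in flox was -0.02 with the Xist term. With 1 library left out, changing values ranged from -0.04 to 0.05 for Slc22a8 in normoxia and -0.11 to 0.05 in hypoxia, and from -0.13 to 0.04 for Slc7a1 in hypoxia. For hypoxia in flox they ranged from -0.07 to 0.01 for Abcg2, -0.02 to 0.21 for Abcc4 and -0.03 to 0.11 for Slc7a5, and in KO from -0.08 to 0.05 for Abcg2 and -0.02 to 0.22 for Abcc4. The interaction ranged from -0.10 to 0.08 for Abcb1a, -0.05 to 0.08 for Abcg2, -0.09 to 0.15 for Abcc4, -0.02 to 0.09 for Slc6a6 and -0.10 to 0.06 for Slc22a8. The causes were not tested. Scaling moved the median of all genes by at most 0.03.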
